A study of Homo sapiens with 4 samples.

Results

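Cadherins and desmosome genes were examined in the RNA-seq counts of samples labelled HT1376, an established human bladder cancer cell line. The group comprises 10 genes, taken by name from a table of 61860: the classical cadherin genes CDH1, CDH2 and CDH3, the desmosomal cadherin genes DSG2, DSC2 and DSC3, and the desmosomal plaque genes JUP, PKP2, PKP3 and DSP. The 2 control samples carry the treatment label WFI, and the 2 other samples had 1 nM enfortumab vedotin (EV), each for 48 h and all in the same line. EV is an antibody-drug conjugate that binds nectin-4 and carries a microtubule poison. The labels do not describe the replicates as separate cultures. Each p-value therefore rests on variation among these samples alone, and that variation may be technical.

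Cadherins are transmembrane proteins that hold neighbouring cells together through calcium-dependent contacts. Classical cadherins form adherens junctions and are tied to actin through beta-catenin, alpha-catenin and p120-catenin. Desmosomes are built from desmogleins and desmocollins, which bind plakoglobin (JUP) and plakophilins (PKP). Desmoplakin (DSP) connects this plaque to keratin filaments and gives epithelia, the urothelium among them, their resistance to stretch.

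Libraries held 19368791 to 20727175 counts. Of 17465 genes that passed the count filter, 66.0% were called changed by edgeR's quasi-likelihood test at an adjusted p below 0.05. The line's label was matched only in part, and the identity of the line could not be checked here. Of its epithelial and urothelial markers KRT7 (436 CPM), PPARG (36.2 CPM) and FOXA1 (21.6 CPM) were expressed in the controls, as was the mesenchymal filament gene VIM (1724 CPM), while others were near 0. The cytokeratin gene KRT20 had 0 counts in all 4 samples, and KRT19 had 1 and 6 in the controls against 0 and 1 in EV. The epithelial adhesion gene EPCAM had 3 and 6 in the controls against 26 and 15 in EV. Of the other markers, GATA3 had 16 and 19 counts in the controls, UPK2 had 5 and 5, and KRT5, UPK1B and UPK3A had 0. KRT8 and KRT18, which pair in simple epithelia, were abundant. NECTIN4, which encodes the antigen of EV, had 28 and 29 counts in the controls against 9 and 6 in EV.

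After EV, 6 of the 9 members tested fell and 1 rose, beside 31.5% lower and 34.5% higher among all genes tested. The 6 that fell were all desmosomal: DSG2, DSC2, DSC3, JUP, PKP2 and DSP, at 42.0% to 57.4% of their control level. PKP3 rose to 127% of control, although that call did not hold under several alternatives given below. CDH2 and CDH3 were not called, and CDH1 lay below the filter. The median log2 fold change was -0.82 over the 9 members tested and 0.02 over all genes tested. These are bulk samples, so fewer cells expressing a gene and less RNA per cell cannot be told apart. Levels are given below as CPM, the count relative to library size after TMM scaling, and the difference as a log2 fold change with its standard error (SE).

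**Figure D1:**
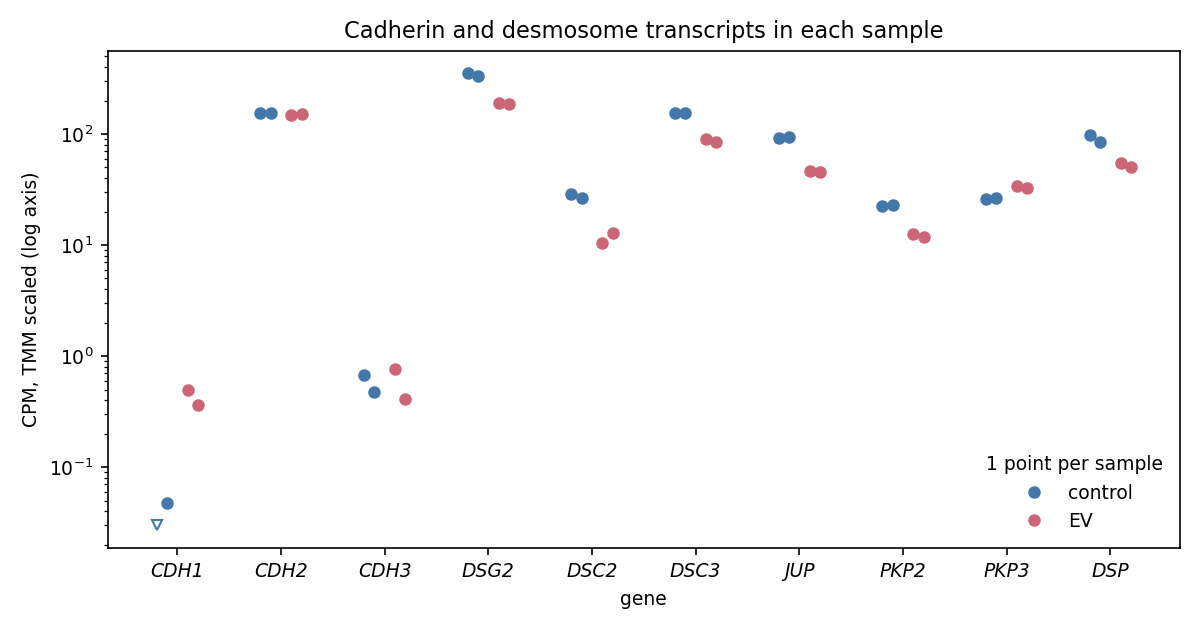
TMM-scaled CPM (log axis) of the 10 genes, with 1 point for each of the 2 control and 2 EV samples; the open triangle is the control sample with 0 CDH1 counts, drawn at the bottom of the axis. DSG2, DSC2, DSC3, JUP, PKP2 and DSP are lower in both EV samples than in either control, CDH2 lies at 149 to 155 CPM in all 4, and CDH1 and CDH3 stay below 1 CPM.

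Among the classical cadherins, CDH2 was the one with a substantial level. CDH2 (ENSG00000170558, hg38 chromosome 18, 27950966 to 28177446, minus strand) encodes N-cadherin, which is typical of neural and mesenchymal cells. It stood at 154 and 155 CPM in the controls and at 149 and 152 CPM in EV. The samples nearly met, and the difference was not called (log2 fold change -0.04 with SE 0.04, 95% interval -0.13 to 0.06, edgeR adjusted p = 0.483). Both ends of that interval are small beside the falls of the desmosomal genes.

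CDH1 (ENSG00000039068, chromosome 16, 68737225 to 68835548, plus strand) encodes E-cadherin, the main adherens junction cadherin of epithelia. It had 0 and 1 counts in the controls against 9 and 7 in EV. In the control sample with 0, up to 3 counts (0.145 CPM) would be allowed by counting error. The EV to control ratio over summed counts was 17.7, with an exact binomial 95% interval of 2.75 to 743 that covers counting error only, and without the count filter the edgeR adjusted p was 0.0688. CDH1 thus remained far below CDH2 in every sample, with 301 and 421 CDH2 counts for each CDH1 count in the EV libraries.

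CDH3 (ENSG00000062038, chromosome 16, 68636189 to 68722616, plus strand) encodes P-cadherin, a cadherin of basal epithelial cells, and ends 14.6 kb before CDH1. It had 14 and 10 counts in the controls against 14 and 8 in EV, and the groups overlapped. At this depth a change could not be bounded tightly (log2 fold change 0.03 with SE 0.62, 95% interval -1.36 to 1.41, edgeR adjusted p = 0.972). TANGO6, the next coding gene beyond CDH1, had 418 and 416 counts in the controls, so counts were not low at all genes of the interval. It was called lower in EV, with 316 and 283 counts (log2 fold change -0.33 with SE 0.12, edgeR adjusted p = 0.0368).

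The desmosomal cadherins fell, all 3 of them. DSG2 (ENSG00000046604, chromosome 18, 31498043 to 31549008, plus strand) encodes desmoglein 2, the desmoglein found in nearly all tissues with desmosomes. It went from 352 and 335 CPM in the controls to 192 and 186 CPM in EV, with no overlap (log2 fold change -0.86 with SE 0.04, edgeR adjusted p = 1.02e-08). DSC2 (ENSG00000134755, chromosome 18, 31058840 to 31102522, minus strand) encodes desmocollin 2, its widely expressed partner.

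DSC2 went from 28.7 and 26.6 CPM to 10.4 and 12.8 CPM, the lowest fold change among the members without length and GC offsets (log2 fold change -1.25 with SE 0.13, edgeR adjusted p = 7.22e-06). DSC3 (ENSG00000134762, chromosome 18, 30990008 to 31042815, minus strand) encodes desmocollin 3, known from the basal layers of stratified epithelia. It went from 155 and 155 CPM to 90.3 and 85.0 CPM (log2 fold change -0.82 with SE 0.05, edgeR adjusted p = 9.58e-08). Both EV samples lay below both controls for each gene.

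These genes lie in the desmosomal cadherin cluster, which spans 559 kb from DSC3 to DSG2. The 4 other desmosomal cadherin genes between them, DSC1, DSG1, DSG4 and DSG3, were silent or nearly so. DSC1, DSG1 and DSG4 had 0 counts in every sample, and DSG3 had 3 and 0 in the controls against 0 and 4 in EV. B4GALT6, a galactosyltransferase gene beyond the DSG2 end of the cluster, did not pass the test (log2 fold change 0.09 with SE 0.08, edgeR adjusted p = 0.305). The antisense genes DSG2-AS1 and DSCAS, which overlap DSG2 and DSC2, had at most 8 and 3 counts in any sample. Their part in the counts of DSG2 and DSC2 was not tested.

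Within a library the ratio of 2 genes does not depend on how libraries are scaled, though it does depend on a correction for length and GC content. The ratio of DSC2 to DSC3 counts was 0.185 and 0.171 in the controls against 0.116 and 0.150 in EV. DSG2 to DSC2 was 12.2 and 12.6 in the controls against 18.4 and 14.6 in EV. The EV samples differed from each other more than the controls did. With length and GC offsets the fitted change of DSG2 to DSC2 turned from 0.39 to -0.05 on the log2 scale, and that of DSC2 to DSC3 went from -0.43 to -0.13. With 2 samples per group an exact permutation test cannot go below p = 0.333 (two-sided), so no ratio was tested.

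In the plaque, plakoglobin, plakophilin 2 and desmoplakin fell. JUP (ENSG00000173801, chromosome 17, 41754604 to 41786931, minus strand) encodes plakoglobin, a relative of beta-catenin that serves both desmosomes and adherens junctions. It went from 92.4 and 93.6 CPM in the controls to 46.4 and 45.3 CPM in EV (log2 fold change -1.02 with SE 0.06, edgeR adjusted p = 7.70e-08). The replicates lay close together in each group.

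PKP2 (ENSG00000057294, chromosome 12, 32790745 to 32896840, minus strand) encodes plakophilin 2, the plakophilin of simple epithelia and heart. It went from 22.7 and 23.2 CPM to 12.6 and 11.9 CPM (log2 fold change -0.90 with SE 0.12, edgeR adjusted p = 4.46e-05). DSP (ENSG00000096696, chromosome 6, 7541575 to 7586717, plus strand), the keratin linker, had 2016 and 1777 counts in the controls against 995 and 969 in EV, or 91.3 ± 8.96 and 52.4 ± 3.29 CPM (SD, n = 2), with no overlap (log2 fold change -0.80 with SE 0.08, edgeR adjusted p = 5.20e-06). The DSP controls were the most spread of these genes, yet both exceeded both EV samples.

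PKP3 (ENSG00000184363, chromosome 11, 392614 to 404908, plus strand) encodes plakophilin 3, which binds more of the desmosomal cadherins than the other plakophilins do. It went the other way, from 25.9 and 26.7 CPM to 34.2 and 32.5 CPM (log2 fold change 0.34 with SE 0.09, edgeR adjusted p = 0.00715). The call was lost without control replicate 1 (log2 fold change 0.29, edgeR adjusted p = 0.114) and without control replicate 2 (0.34, edgeR adjusted p = 0.0694). With offsets for gene length and GC content the value was near 0 (0.01, edgeR adjusted p = 0.967).

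The ratio of the plakophilins also differed between the groups. PKP3 to PKP2 counts stood at 1.14 and 1.15 in the controls and at 2.71 and 2.72 in EV, a 2.37-fold higher mean ratio. PKP3 to DSP was 0.265 and 0.314 in the controls against 0.626 and 0.649 in EV. CDH2 to DSG2 was 0.437 and 0.463 in the controls against 0.776 and 0.819 in EV. JUP to DSP, which both fell, was 0.947 and 1.10 in the controls against 0.849 and 0.906 in EV. In each of these ratios the EV samples fell on 1 side of both controls. With length and GC offsets the fitted EV to control change was 1.60-fold for PKP3 to PKP2 (2.37-fold without them), 1.35-fold for PKP3 to DSP (2.21-fold without) and 1.56-fold for CDH2 to DSG2 (1.77-fold without). For JUP to DSP it was 0.577-fold (0.860-fold without).

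Levels were compared between genes as CPM per kilobase of merged exons. In the controls the order was DSG2 (55.5 ± 1.89, SD, n = 2), CDH2 (31.2 ± 0.219), DSC3 (22.0 ± 0.0260), JUP (18.8 ± 0.166), DSP (9.04 ± 0.888), PKP3 (6.94 ± 0.153), PKP2 (3.26 ± 0.0477), DSC2 (2.21 ± 0.121), CDH3 (0.0927 ± 0.0227) and CDH1 (0.00387 ± 0.00547). DSG2 lay above 95.5% of the coding genes tested on this scale, and CDH3 above 7.10%. In EV, DSG2 (30.5 ± 0.682) and CDH2 (30.4 ± 0.478) did not differ beyond their spread, and neither did CDH3 (0.0948 ± 0.0404) and CDH1 (0.0693 ± 0.0152). Per kilobase of the principal transcript, CDH2 (34.8 ± 0.546) lay above DSG2 (32.4 ± 0.724) in EV, beyond their spread, so the top of the EV order depends on the length used.

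PKP3 (8.81 ± 0.329) passed DSP (5.19 ± 0.326) in the EV order. Length by the principal transcript instead of merged exons put JUP above DSC3 in both groups (26.6 against 22.4 CPM per kilobase in the controls) and PKP3 level with DSP in the controls (9.35 and 9.32), so these neighbours are not ordered firmly. Among the desmosomal cadherin members, DSC2 was the lowest and DSG2 the highest with either length.

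**Figure D2:**
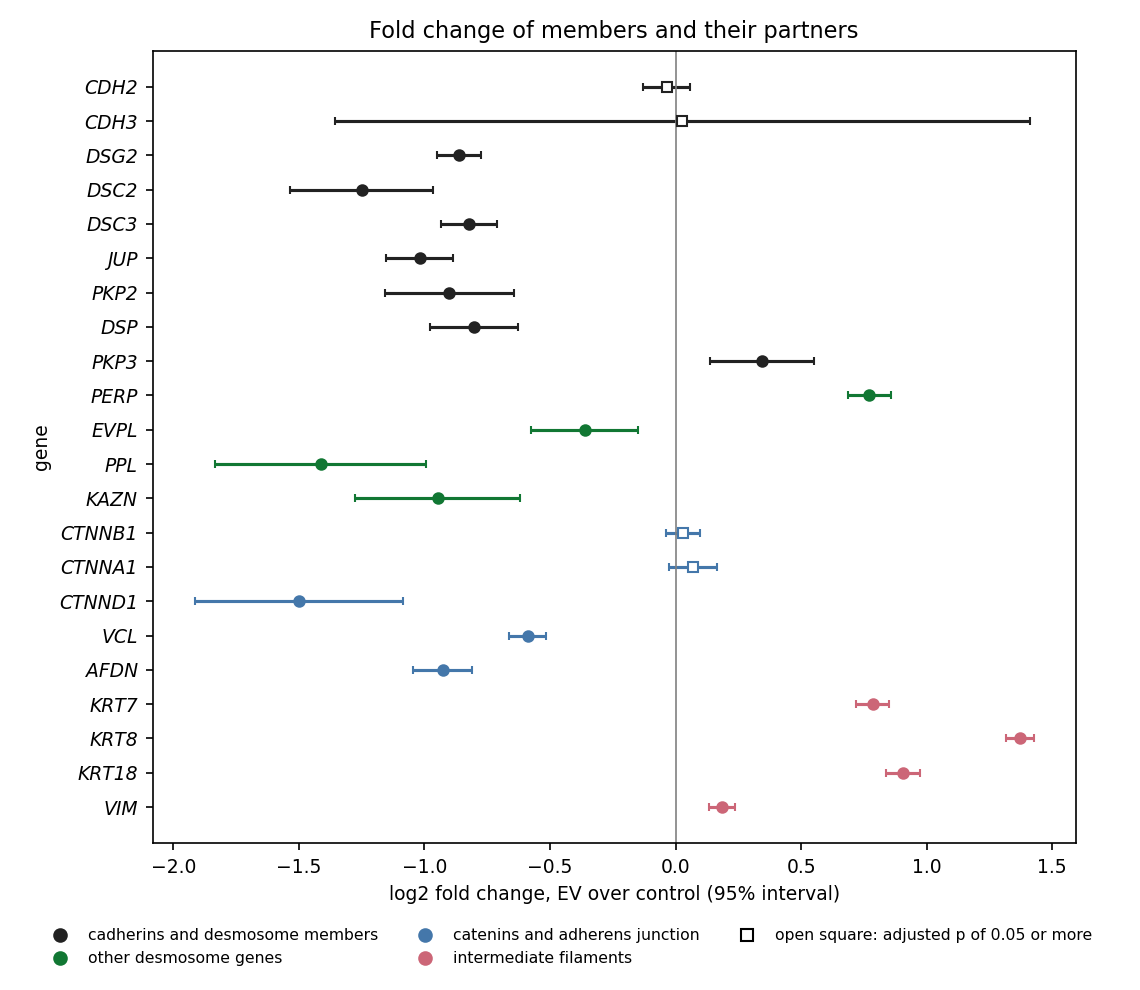
Log2 fold change of EV over control with its 95% interval for the 9 members tested and for genes of the structures they join; filled points had an edgeR adjusted p below 0.05. The desmosomal members except PKP3 lie between -1.25 and -0.80, CDH2, CTNNB1 and CTNNA1 lie near 0, and KRT7, KRT8 and KRT18 lie above 0.

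Fold changes in this contrast went along with gene length, and members were therefore set beside coding genes of like merged exon length, in 10 classes. DSG2, DSC3 and PKP2 (6190, 7056 and 7043 bases) share a class with a median log2 fold change of -0.17, a lower quartile of -0.61 and 44.3% of genes called lower. All 3 lay below that quartile. JUP (4942 bases) lay at -1.02 in a class with a median of 0.02, a lower quartile of -0.43 and 33.0% called lower.

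The longest members stood out less. DSC2 (12495 bases) lay at -1.25 in a class with a median of -0.67, a lower quartile of -1.22 and 67.1% called lower. DSP (10093 bases) at -0.80 was inside the middle of its class, whose median was -0.42 and lower quartile -0.84. PKP3 (3787 bases) at 0.34 was also inside the middle of its class, which had a median of 0.10 and an upper quartile of 0.52.

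With offsets for length and GC content all 6 falls kept their call, most of them at a smaller size. The log2 fold change became -0.55 for DSC2 (edgeR adjusted p = 0.00224), -0.42 for DSC3 (1.01e-05), -0.43 for DSP (0.000339), -0.60 for DSG2 (2.82e-08) and -0.67 for PKP2 (0.000303). JUP alone among them was larger, at -1.22 (2.60e-09), and with the offsets JUP, PKP2 and DSG2 all lay below DSC2. CDH2 was 0.04 (0.414).

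**Figure D3:**
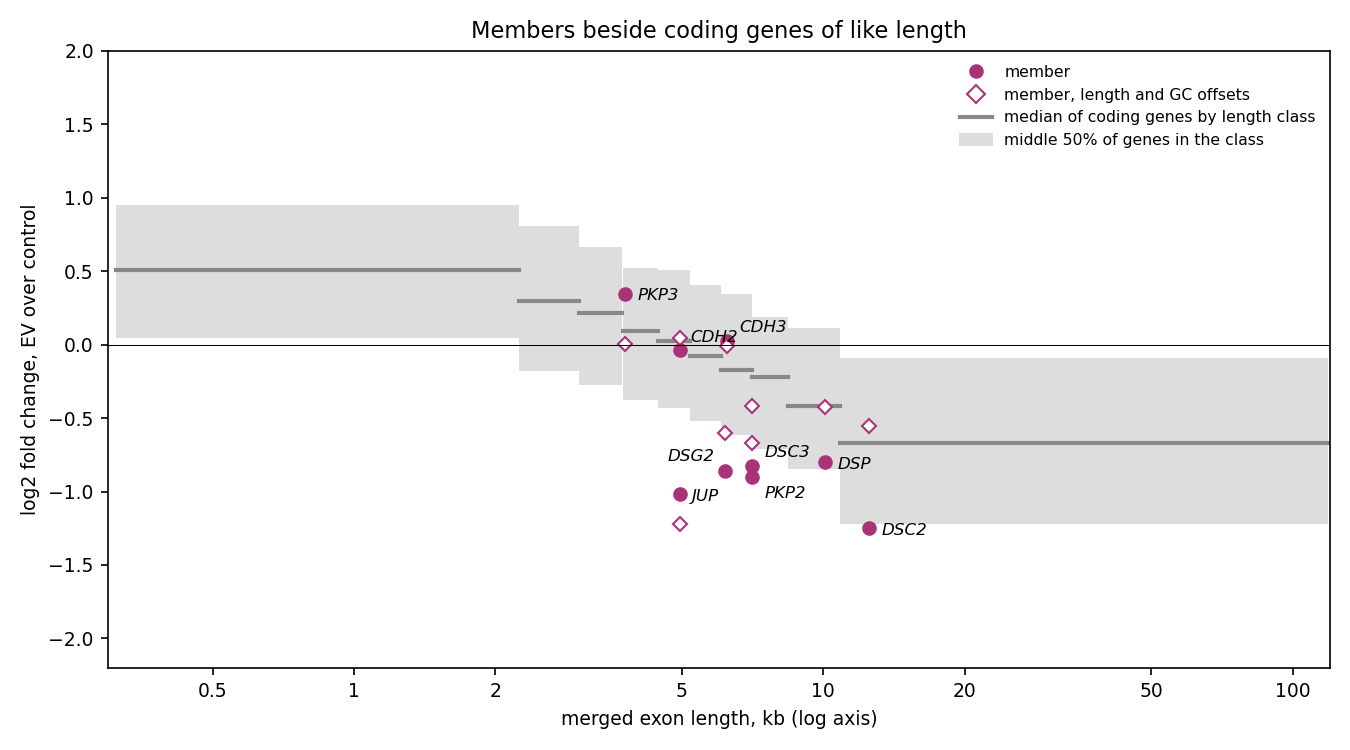
Log2 fold change of EV over control against merged exon length in kb (log axis) for the 9 members tested (filled points; open diamonds with length and GC offsets), over the median and middle 50% of coding genes in 10 length classes. JUP, DSG2, DSC3 and PKP2 lie below the middle of their classes, while DSP and PKP3 lie inside it and DSC2 at its lower edge.

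The other desmosome genes listed were split. Of 10, 5 passed the filter, of which 2 rose and 3 fell. This list and those below stand beside all genes tested, of which 34.5% were higher and 31.5% lower. PERP, a membrane protein of desmosomes and a p53 target, rose from 162 ± 1.67 to 276 ± 5.13 CPM (SD, n = 2; log2 fold change 0.77 with SE 0.04, edgeR adjusted p = 1.94e-08). PPL (periplakin), a plakin like DSP, fell from 12.2 ± 1.86 to 4.59 ± 0.428 CPM (log2 fold change -1.41 with SE 0.19). EVPL and KAZN, a second plakin of the cell cortex and a periplakin-binding protein, fell with log2 fold changes of -0.36 and -0.95. PKP1, the plakophilin of stratified epithelia, had 0 and 1 counts in the controls against 34 and 34 in EV, so it passed the filter through EV alone, both controls lying under the filter's minimum, and could only rise (ratio 75.3, exact binomial 95% interval 13.1 to 3017).

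The adherens junction partners included 17 genes, of which 14 were tested, 8 fell, 4 rose and 2 were not called. CTNND2, 1 of the 4, had 0 counts in both controls and could only rise. The 2 not called were the core catenins. CTNNB1 (beta-catenin) stood at 461 ± 2.72 and 471 ± 1.57 CPM (log2 fold change 0.03, 95% interval -0.04 to 0.10, edgeR adjusted p = 0.396), and CTNNA1 (alpha-catenin) at 476 ± 2.18 and 499 ± 33.8 CPM (0.07, 95% interval -0.02 to 0.16, edgeR adjusted p = 0.173). Both are long by merged exons (11927 and 8830 bases), while their principal transcripts have 4735 and 3756 bases. With length and GC offsets, which use the merged length, both were called higher (0.59, edgeR adjusted p = 3.18e-09, and 0.39, edgeR adjusted p = 3.84e-06). Offsets from the principal transcript were not tried. Upper quartile scaling and the filter of 50 counts also called them higher, as did leaving out EV replicate 1 for CTNNA1 (0.13, edgeR adjusted p = 0.00620). The values changed sign without the filter, without control replicate 2 for CTNNB1 and without EV replicate 2 for CTNNA1.

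CTNND1 (p120-catenin), which keeps cadherins at the membrane, fell from 10.6 ± 0.346 to 3.73 ± 0.0617 CPM (log2 fold change -1.50 with SE 0.19, edgeR adjusted p = 3.57e-05). Its counts are uncertain, because it overlaps the readthrough gene TMX2-CTNND1 on its own strand. The actin linkers VCL (vinculin) and AFDN (afadin) fell with log2 fold changes of -0.59 and -0.93, or -0.13 and -0.40 with length and GC offsets. NECTIN1, an immunoglobulin-like adhesion gene bound by afadin, rose from 24.5 ± 0.120 to 64.7 ± 5.17 CPM.

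Of 20 other cadherins listed, 10 were tested, with 2 higher, 1 lower and 7 not called. Higher calls were 3 with RLE or upper quartile scaling, with a replicate block and with length and GC offsets. CDH4 was not called (log2 fold change 0.37, edgeR adjusted p = 0.0548), but was called higher with those offsets (0.40, edgeR adjusted p = 0.0357). CDH23, known from the hair cells of the inner ear, had 8 and 6 counts in the controls against 338 and 440 in EV. CDH23, 1 of the 2 higher, passed the filter through EV alone and could only rise (log2 fold change 5.91 with SE 0.26). CDH24 rose from 37.3 ± 0.679 to 80.7 ± 1.49 CPM. CDH13, a cadherin held by a lipid anchor, fell with a log2 fold change of -0.40, which changed sign with length and GC offsets (0.14, edgeR adjusted p = 0.0945). Those offsets use its merged exons (11187 bases), while its principal transcript has 2722 bases. CDH11, a mesenchymal cadherin, had 0 counts in all samples.

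Tight junction genes, the neighbouring structure in epithelia, gave 6 lower, 2 higher and 5 not called of 13 tested, with 4 of 17 below the filter. Of all genes tested, 31.5% were lower and 34.5% higher. TJP3 and MARVELD3 passed the filter through EV alone and could only rise, and TJP3 was 1 of the 2 higher. CLDN16, 1 of the 6 lower, had 20 and 27 counts in the controls against 1 and 7 in EV. It passed the filter through the controls alone and could only fall. CLDN12, also 1 of the 6, fell with a log2 fold change of -0.31 but was called higher with length and GC offsets (0.14, edgeR adjusted p = 0.0328). CLDN1 (claudin 1) fell from 474 ± 10.7 to 282 ± 15.6 CPM and F11R, a junctional adhesion molecule, from 27.8 ± 0.0535 to 9.01 ± 1.56 CPM. CLDN11 (claudin 11) fell from 203 ± 3.40 to 148 ± 1.82 CPM. The 2 higher calls were 0 without control replicate 2 and 1 without EV replicate 2.

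Of 12 intermediate filament genes, whose proteins desmosomes anchor, 9 were tested, 8 called higher and 0 lower. Among all genes tested, 34.5% were higher and 31.5% lower. KRT5, KRT6A and DES, 3 of the 8, passed the filter through EV alone and could only rise. KRT5 and KRT6A had 0 counts in both controls, and DES, the muscle filament gene, had 1 and 0. DESeq2 also gave 0 lower, as did edgeR at an unadjusted p below 0.05. The gene not called was KRT15 (log2 fold change -0.23, edgeR adjusted p = 0.0925), and 1 gene was called lower without EV replicate 1 or without the count filter. KRT8 rose from 733 ± 8.56 to 1896 ± 10.5 CPM (log2 fold change 1.37 with SE 0.03, edgeR adjusted p = 6.13e-12). KRT18 and KRT7 rose with log2 fold changes of 0.91 and 0.78, or 0.61 and 0.51 with length and GC offsets. VIM, the mesenchymal filament gene, rose with a log2 fold change of 0.18.

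**Figure D4:**
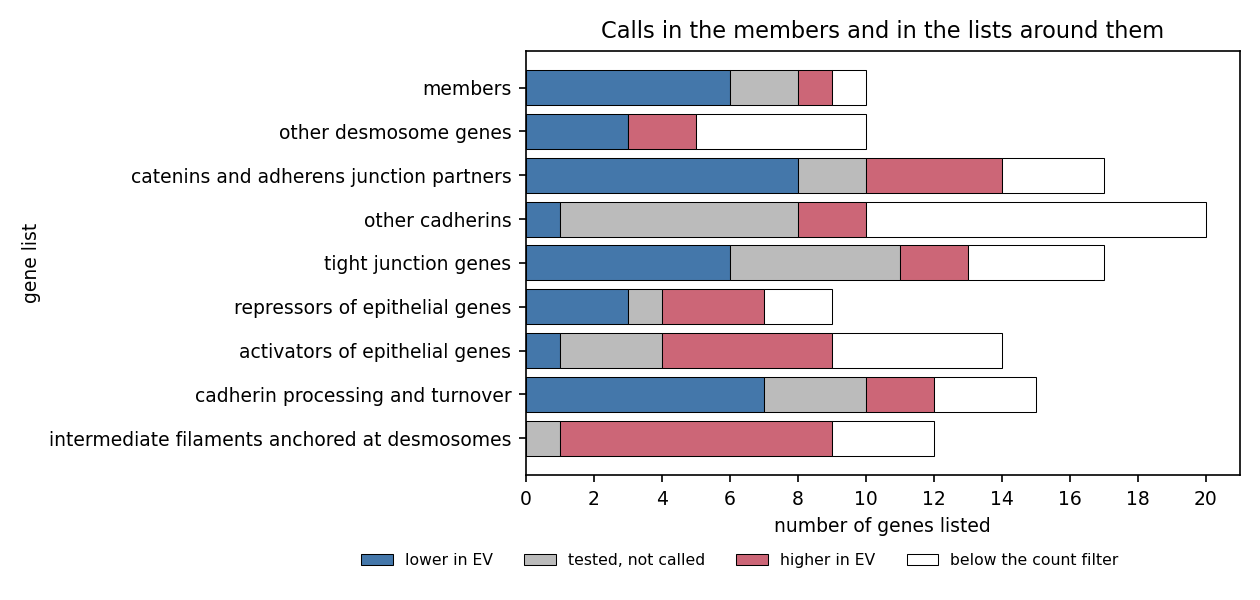
Number of genes per list that were lower, higher, not called or below the count filter in EV against control (edgeR adjusted p below 0.05). The members hold 6 lower and 1 higher of 10, and the intermediate filaments 0 lower and 8 higher of 12, of which 3 passed the filter through EV alone. Of all genes tested, 31.5% were lower and 34.5% higher.

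Among transcription factors that repress epithelial adhesion genes, 3 rose, 3 fell and 1 was not called of 7 tested. SNAI1, which represses CDH1 through E-boxes, had 19 and 27 counts in the controls against 19741 and 22138 in EV. SNAI2 rose with a log2 fold change of 0.77. ZEB1 and ZEB2 fell with log2 fold changes of -0.53 and -0.89, but with length and GC offsets ZEB1 was at 0.05 (edgeR adjusted p = 0.593) and ZEB2 at -0.10 (edgeR adjusted p = 0.366). Of 9 activators of epithelial genes tested, 5 rose and 1 fell, beside 34.5% higher and 31.5% lower among all genes tested. TP63 and OVOL1, 2 of the 5, passed the filter through EV alone (0 and 0, and 2 and 1 control counts) and could only rise. KLF4 and KLF5 rose with log2 fold changes of 3.94 and 2.72, and GRHL1, a grainyhead factor, from 1.30 ± 0.192 to 7.75 ± 1.16 CPM. GRHL2, an activator of CDH1, had 0 counts in both controls and 23 and 4 in EV.

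E-boxes of the SNAI type were looked for in the promoters of the members. The letters searched were CACCTG and CAGGTG, which are reverse complements and so cover both strands, in RefSeq windows (GRCh38.p14) of 250 bases before to 50 after a start. Of the members, 6 had a window: CDH2, DSG2, DSC2, DSC3, JUP and DSP. Matches were found in DSG2, DSC2, JUP and DSP, in 4 of 9 windows, against 20.6% of 35116 windows in the table. No match was found in the windows of CDH2 and DSC3. The matches are shown within 30 bases, 5′ to 3′ on the strand of the gene, with the E-box in capitals; the 2 JUP stretches overlap.
DSG2 at chr18:31497933-31497962, plus strand: acgtcacggtccCAGGTGcgagtgcgagcg
DSG2 at chr18:31498049-31498078, plus strand: tcgcggcggccaCACCTGgagccgcgcctt
DSC2 at chr18:31102560-31102589, minus strand: tcaactttctgtCAGGTGggcctcaggcag
JUP at chr17:41786013-41786042, minus strand: cgactctggcccCACCTGccgagcaggtga
JUP at chr17:41786002-41786031, minus strand: ccacctgccgagCAGGTGagcgcacggagt
DSP at chr6:7541481-7541510, plus strand: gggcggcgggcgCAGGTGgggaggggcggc
DSP at chr6:7541574-7541603, plus strand: gaagaaaccggcCAGGTGtggcctaggcgc

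DSC2 and JUP have a match at 1 of their 2 annotated starts, and CDH1, CDH3, PKP2 and PKP3 had no window. The share of matching windows is a description of these letters. No measurement of binding was made here, and a part of SNAI factors in the members' values was not tested.

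Genes that process or remove cadherins were mostly lower, with 7 lower, 2 higher and 3 not called of 12 tested. The shares over all genes tested were 31.5% lower and 34.5% higher. ADAM10, a metalloprotease that sheds cadherin ectodomains, fell from 144 ± 0.389 to 78.1 ± 3.22 CPM, a call lost with length and GC offsets (log2 fold change -0.09, edgeR adjusted p = 0.136). ADAM15 rose from 201 ± 1.04 to 310 ± 1.62 CPM. PCSK5, a proprotein convertase and 1 of the 2 higher, had 8 and 7 counts in the controls against 187 and 176 in EV. It passed the filter through EV alone and could only rise.

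Markers of other cell types were summed beside these results. Of 10 leukocyte markers 4 were tested and all 4 were called higher, beside 34.5% of all genes tested. The summed level of the 10 went from 1.79 to 2.63 CPM in the controls to 44.3 to 45.1 CPM in EV. It was carried mostly by ITGAM, CD79A and CD14 (464 and 513, 182 and 155, and 128 and 146 counts in EV). CD79A, ITGAM and CSF1R, 3 of the 4, passed the filter through EV alone and could only rise. The defining leukocyte gene PTPRC had 1 and 3 counts in the controls against 4 and 9 in EV. Of 6 endothelial markers 4 were tested and 3 called higher (10.9 to 13.7 CPM, then 20.3 to 22.3 CPM). CDH5 (VE-cadherin) was at 0 in both controls and at 5 and 3 counts in EV. Of 7 fibroblast markers 3 were tested and 1 called higher (11.5 to 12.2 CPM, then 11.4 to 13.6 CPM). COL1A2 was at 3 and 0 counts in the controls. Of 15 urothelial and epithelial markers 9 were tested and all 9 were called higher (1606 to 1623 CPM, then 3454 to 3497 CPM). For these and the endothelial and fibroblast markers too, 34.5% of all genes tested is the share called higher to set beside the counts. TEK, FAP, EPCAM, KRT5 and UPK1A, among the markers called higher, passed the filter through EV alone and could only rise. The part of these changes in the members' values was not tested.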

How the data were processed

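Counts per gene are whole numbers as the authors deposited them, with no normalization; per the submitters' processing notes the build was hg38. Which aligner, counter, strand setting and annotation were used: not given in the sources used here. Coordinates, lengths and overlaps came from GENCODE on the same build, and 61757 identifiers matched a symbol. The filter (filterByExpr on the group) left 17465 genes, tested with edgeR 4.0.16 in R 4.3.3 (TMM scaling, quasi-likelihood, group only, Benjamini-Hochberg over all genes). A gene passed through EV alone where both controls were under the CPM that 10 counts make in a library of median size. It passed through the controls alone where both EV samples were under that CPM. SE is the size of the log2 fold change over the square root of F. Alternatives comprised upper quartile and RLE scaling, DESeq2 1.42.0, other filters, each sample left out, and a replicate block. Spline offsets for merged exon length and GC were also used, alone and with the block. The procedure was tested on simulated counts. Promoter windows came from RefSeq (GRCh38.p14). Length classes used 12321 coding genes at 1 CPM or more. The members and lists were chosen with earlier results of these data known. Named were the members, 3 genes per list with the smallest adjusted p, and 10 set genes (SNAI1, SNAI2, ZEB1, ZEB2, GRHL2, CTNNB1, CTNNA1, CTNND1, PERP, NECTIN4); others, such as EVPL, KAZN, VIM and those cited for low counts, were chosen after their values were seen.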

Additional observations from a re-analysis of the deposited data

How the results depend on the processing

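The 6 lower members were called under all 12 alternatives. Without one sample in turn their log2 fold changes stayed within -0.93 to -0.85 (DSG2), -1.42 to -1.13 (DSC2), -0.88 to -0.79 (DSC3), -1.06 to -1.02 (JUP), -0.95 to -0.87 (PKP2) and -0.93 to -0.73 (DSP). Replicate numbers in the titles are not said to mark a shared culture or day, and deviations of same-numbered samples correlated at 0.0159 over 17465 genes. With a replicate block 6 members were lower and 1 higher, as without it, and all genes gave 5957 higher and 5573 lower. Higher members were 0 with length and GC offsets, with or without the replicate block, and 0 to 1 without one sample. Other list counts moved by over 1.5 times as follows. With length and GC offsets, with or without the block, lower other cadherins were 0, higher tight junction genes 4 and lower repressors 1. With the filter of 50 counts, higher other desmosome genes were 1, higher tight junction genes 1, higher activators 3 and higher fibroblast markers 0. Without a filter, lower activators were 2, lower filaments 1 and higher fibroblast markers 2. Lower activators were 2 also with the replicate block, alone or with the offsets. Without one sample, higher tight junction genes ran from 0 to 2, lower activators from 1 to 2 (2 without control replicate 2 or EV replicate 1), lower filaments from 0 to 1 (1 without EV replicate 1), and fibroblast markers from 1 to 3 higher (2 without control replicate 1, 3 without EV replicate 2) and 0 to 1 lower (1 without EV replicate 1).

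Signs turned for values near 0. CDH2 was 0.0201 with upper quartile scaling, 0.0114 with the filter of 50 counts, 0.0436 with length and GC offsets and 0.0433 with block and offsets. CDH3 was -0.0476 without a filter, -0.0108 with the offsets, -0.0351 with block and offsets, and -0.49 to 0.40 without one sample. CTNNB1 was -0.0458 and CTNNA1 -0.00669 without a filter, and they ran from -0.00782 to 0.0198 and from -0.0158 to 0.13 without one sample. With the offsets, without and with the block, CDH13 was 0.14 and 0.14 and ZEB1 0.0451 and 0.0465. The cause was not tested. Depth limits CDH1 and CDH3, whose counts allow no statement on small changes.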
